A study of Mus musculus with 12 samples.

Results

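Expression of 10 Notch pathway genes was examined in mouse striatum at embryonic day 18.5: the receptor genes Notch1, Notch2 and Notch3, the ligand gene Jag1, the gene of the DNA-binding effector Rbpj, and the target genes Hes1, Hes5, Hey1, Hey2 and Nrarp. The genes were chosen by name, and 10 of 10 were present, each as 1 of the 25428 probe sets of the array table. The 12 arrays held biotin-labelled total RNA from both striata of 1 embryo each, with 6 wild-type (WT) animals and 6 animals labelled Nestin-Cre (Foxp1-/-), called cKO here, all on the C57BL/6J background. Nestin-Cre drives recombination in neural progenitors and their progeny, and Foxp1 encodes a forkhead transcription factor of striatal projection neurons. The labels name no Cre-carrying control, so the presence of Cre and the loss of Foxp1 cannot be told apart. The labels also do not give the deleted exons. The comparison asks whether these transcripts differ in late embryonic striatum between WT animals and animals with this Foxp1 genotype.

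Notch receptors are single-pass membrane proteins that are cut after they bind a Delta or Jagged ligand on a neighbouring cell. The released intracellular domain joins Rbpj and a Mastermind coactivator on DNA and switches on repressor genes of the Hes and Hey families, which hold back neuronal differentiation. In the embryonic striatum the pathway is known for keeping radial glia and ganglionic eminence progenitors undifferentiated, and Notch3 and Hey genes are also known from blood vessel walls.

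The promoters of Hes5 and Hey2 are shown because they hold the core letters known to be recognised by Rbpj, TGGGAA, or TTCCCA on the other strand. Of the 10 genes, 8 were matched to RefSeq promoter windows of GRCm38.p6 (250 bases before to 50 after the start), and Hes1 and Hey1 were not. Both strands of each window were searched. Matches lay in the windows of Hes5, Hey2 and Rbpj, in 4 of 9 windows in all, since Rbpj has more than 1 start. The same letters occurred in 25.6% of all 32851 windows, so a match is a description and not a binding site. The 250 bases before the start are printed 5′ to 3′ on the gene's strand, with matched letters in capitals.
Hes5, chr4:154960673-154960922, plus strand: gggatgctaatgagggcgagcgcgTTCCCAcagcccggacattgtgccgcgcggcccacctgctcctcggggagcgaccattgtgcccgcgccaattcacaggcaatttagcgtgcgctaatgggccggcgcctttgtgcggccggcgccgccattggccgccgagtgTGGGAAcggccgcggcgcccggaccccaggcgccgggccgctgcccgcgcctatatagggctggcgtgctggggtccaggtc
Hey2, chr10:30842784-30843033, minus strand: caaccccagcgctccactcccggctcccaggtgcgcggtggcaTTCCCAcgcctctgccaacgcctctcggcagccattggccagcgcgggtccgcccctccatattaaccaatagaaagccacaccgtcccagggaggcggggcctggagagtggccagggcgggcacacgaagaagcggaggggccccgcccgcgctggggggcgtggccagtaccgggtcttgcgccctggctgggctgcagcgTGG
The Hes5 matches began at -226 and -82, counted back from the start. The Hey2 matches began at -207 and at -3, and the second one runs across the start, so that its whole sequence is given with its flanks.
Hey2 second match, chr10:30842771-30842796, minus strand: ggctgcagcgTGGGAAagaacctcca
Rbpj itself held matches at -149 and -65 of its first start.
Rbpj first match, chr5:53590187-53590212, plus strand: tgaaaaaggcTGGGAAcccgcggcga
Rbpj second match, chr5:53590271-53590296, plus strand: cgctcgcattTTCCCAggacccctcc

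Values are deposited RMA expression values on the log2 scale, and differences subtract WT from cKO on that scale, each with the standard error (SE) that limma gives. The number of arrays limits the precision. Foxp1 averaged 11.14 ± 0.17 (SD, n = 6) on the WT arrays and 10.23 ± 0.08 (SD, n = 6) on the cKO arrays, with no overlap between the groups. The difference was -0.91 ± 0.073 (SE; limma adjusted p = 0.00017), or 1.88-fold. The Foxp1 signal on cKO arrays thus stayed far above the median probe set of 5.71. Over all 25428 probe sets, 185 passed the threshold of an adjusted p of 0.05 (limma, Benjamini-Hochberg), 76 higher and 109 lower. Leaving out cKO replicate 2, 3 or 5 gave 106, 117 or 109 calls. Y-linked genes (3 of 4 listed measured) averaged 5.34, 5.34 and 5.40 on these arrays, against 7.38 to 7.71 on the other cKO arrays. They averaged 5.37 and 5.35 on WT replicates 3 and 4, against 7.32 to 7.60 on the other WT arrays. Both groups thus appear to hold embryos of both sexes. Adding each array's Y-linked signal to the fit left 151 calls, 53 higher and 98 lower. The part of sex in the counts without cKO replicate 2, 3 or 5 was not tested. Mean correlations of an array with its group ran from 0.995 to 0.998. WT replicate 3 had the lowest one, and it also read lowest among the WT arrays for 5 of the 10 genes and highest for 3. In cKO replicate 1, Ttr, the defining transcript of choroid plexus, read 9.96, against 5.39 to 5.57 on the other 11 arrays. The other genes of the choroid plexus and ependyma list spread far less. The cKO SD was 1.8 for Ttr, against 0.021 for Kl, 0.041 for Folr1, 0.026 for Otx2, 0.038 for Foxj1 and 0.069 for Ccdc153. Of the 6 genes of this list 3, Kl, Folr1 and Otx2, lay below the median probe set, where RMA values are compressed. Their small SDs therefore cannot show whether other choroid plexus transcripts rose on that array. Because the tissue was bulk striatum, fewer cells of a type and less RNA per cell cannot be told apart.

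None of the 10 Notch pathway genes passed the threshold: 0 rose and 0 fell in cKO, where 0.728% of all probe sets were called, 0.299% as higher and 0.429% as lower. At an unadjusted limma p under 0.05 there were 2 of 10, Jag1 and Hey2, both with higher means in cKO, against 10.7% of all probe sets in either direction and 5.06% as higher and 5.67% as lower. Of the 10, 7 had a positive difference, with a median of 0.029 over the 10, against 48.8% of all probe sets and a median of -0.00077. The groups overlapped for all 10 genes, while 1.38% of all probe sets had groups without overlap. All 10 differences were at most 0.095 in size, or 1.07-fold.

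**Figure D1:**
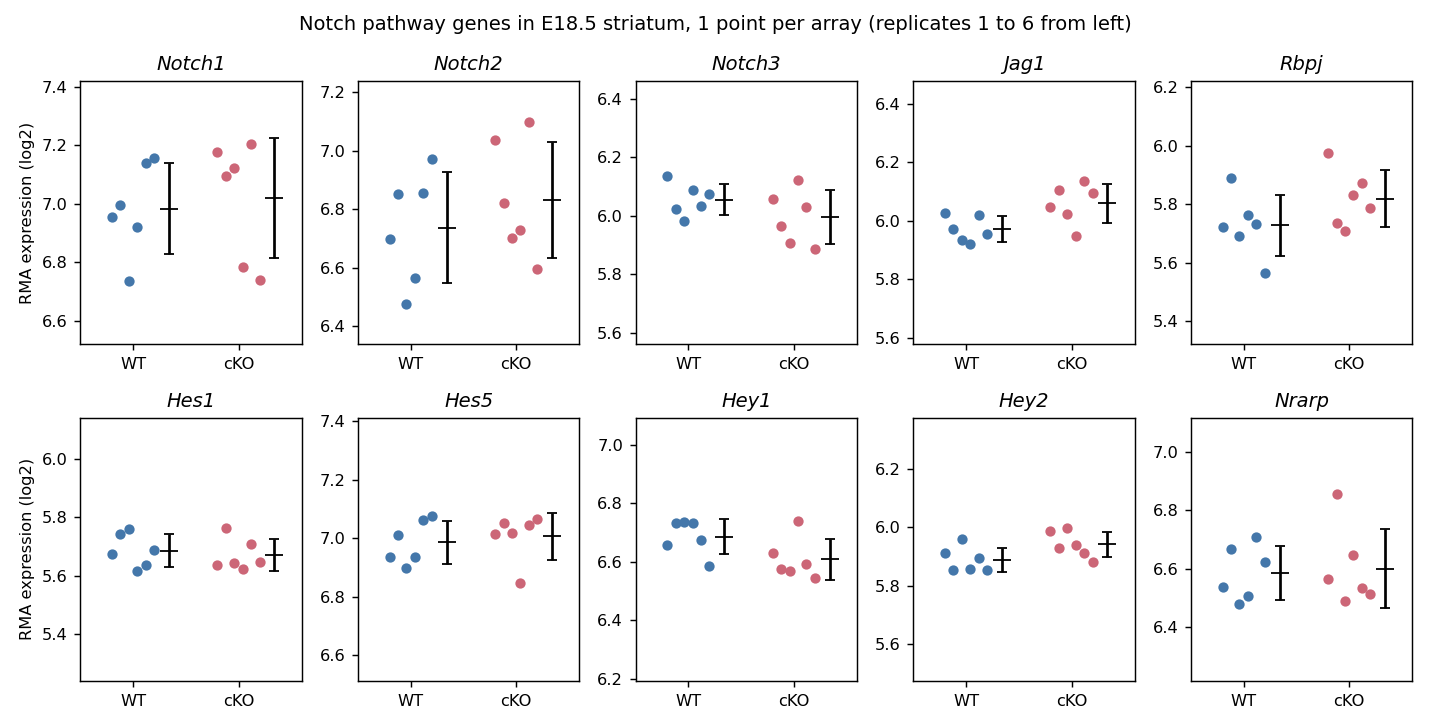
RMA expression (log2, vertical axis) of the 10 Notch pathway genes on each WT (blue) and cKO (red) array, replicates 1 to 6 from left to right, with the group mean and SD in black. Every panel spans the same number of log2 units, and the groups overlap for each of the 10 genes.

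The receptors Notch1 and Notch2 varied most from array to array among the 10 genes, and their groups overlapped widely, with 2 cKO arrays above the highest WT array for each. Notch1, the main receptor of neural progenitors, had a lowest, median and highest value of 6.74, 6.98 and 7.16 in WT and of 6.74, 7.11 and 7.20 in cKO. In each genotype a low array stood out, WT replicate 3 and cKO replicate 6, the latter with cKO replicate 4 beside it at 6.78. The group means were 6.98 ± 0.15 (SD, n = 6) and 7.02 ± 0.20 (SD, n = 6), a difference of 0.037 ± 0.097 (SE; limma adjusted p = 0.932). The difference turned to -0.013 without WT replicate 3. Notch2, a paralogous receptor that is also expressed by radial glia, had a lowest, median and highest value of 6.48, 6.77 and 6.97 in WT and of 6.60, 6.77 and 7.10 in cKO. Its 2 highest cKO arrays, replicates 1 and 5, lay above every WT array, but both medians rounded to the same value. The difference was 0.095 ± 0.10 (SE; limma adjusted p = 0.801), and it was 0.041 without cKO replicate 5.

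Notch3, known from mural cells of blood vessels, showed a narrower spread. Its lowest, median and highest values were 5.98, 6.05 and 6.13 in WT and 5.89, 6.00 and 6.12 in cKO. In cKO 3 arrays fell below the lowest WT array, and the remaining ones lay within the WT range. The difference was -0.061 ± 0.041 (SE; limma adjusted p = 0.647). Beside it, the mural cell list, of which 8 of 8 genes were measured, averaged 6.56 to 6.62 per WT array and 6.58 to 6.65 per cKO array, with 2 genes below the median probe set. In the fit 0 of these 8 mural genes passed. In the within-genotype correlations described below, Notch3 had r = -0.233 with the mural cell list (permutation p = 0.514, adjusted p = 0.868).

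The ligand gene Jag1 had the smallest p of the 10 genes. The WT replicates 1 to 6 read 6.03, 5.97, 5.94, 5.92, 6.02 and 5.96, and the cKO replicates read 6.05, 6.11, 6.02, 5.95, 6.14 and 6.10. Thus 4 of 6 cKO arrays lay above the highest WT array, while cKO replicate 4 lay among the low WT arrays. The difference was 0.088 ± 0.031 (SE), or 1.06-fold, with an unadjusted limma p of 0.0166 and an adjusted p of 0.312. Without cKO replicate 4 it was 0.11 (limma adjusted p = 0.102), which again missed the threshold.

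Rbpj, the factor through which cleaved Notch reaches DNA, had a lowest, median and highest value of 5.57, 5.73 and 5.89 in WT and of 5.71, 5.81 and 5.98 in cKO. Of its cKO arrays 5 lay above the WT mean, but only replicate 1 lay above the highest WT array. The difference was 0.092 ± 0.055 (SE; limma adjusted p = 0.595). That array is the one with the high Ttr value, and without it the difference was 0.061 (limma adjusted p = 0.746). It was 0.060 without WT replicate 6, where Ttr read 5.57 (limma adjusted p = 0.785). In the within-genotype correlations described below, Rbpj had r = 0.486 with the choroid plexus and ependyma list, which holds Ttr (permutation p = 0.150, adjusted p = 0.677). That r was -0.79 within WT and 0.81 within cKO. Whether the level of Ttr itself has a bearing on the Rbpj values was not tested.

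**Figure D2:**
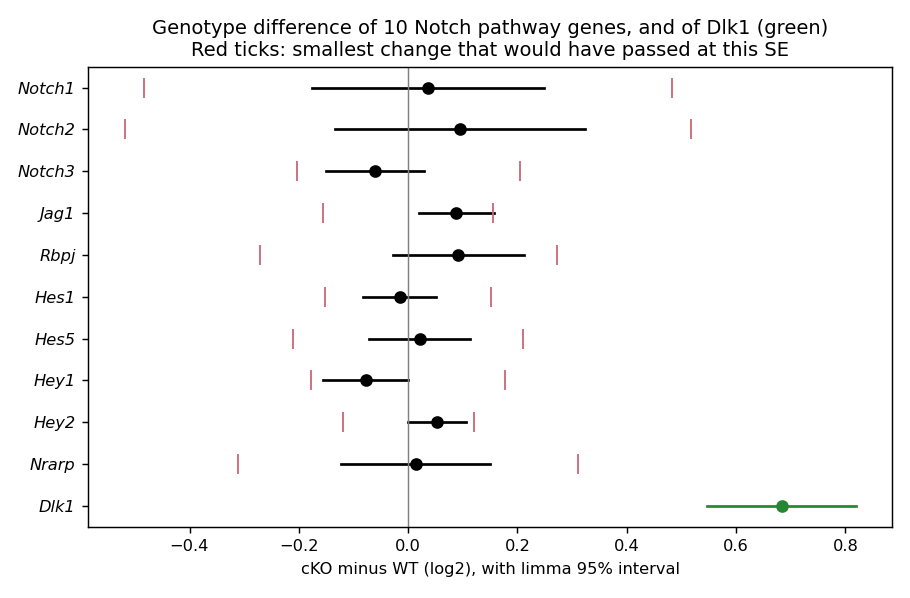
Difference cKO minus WT (log2, horizontal axis) with limma's 95% interval for the 10 genes (black) and for Dlk1 (green), with red ticks at the smallest difference that would have passed at each gene's SE. The 10 points lie between -0.078 and 0.095, and none reaches its tick, while Dlk1 lies at 0.68.

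Among the targets, Hes1 and Hes5, repressors of proneural genes in radial glia, gave means that differed by less than the spread within groups. Hes1 averaged 5.69 ± 0.057 (SD, n = 6) on WT arrays and 5.67 ± 0.054 (SD, n = 6) on cKO arrays, a difference of -0.015 ± 0.031 (SE; limma adjusted p = 0.907). Its mean lay just below the median probe set of 5.71, where RMA values are compressed. Hes5 had a lowest, median and highest value of 6.90, 6.97 and 7.08 in WT and of 6.85, 7.03 and 7.07 in cKO. Of the cKO arrays 5 lay between 7.02 and 7.07, and cKO replicate 4 read 6.85, below every WT array. The Hes5 difference was 0.021 ± 0.042 (SE; limma adjusted p = 0.908). Leaving out 1 array at a time gave 0.0032 to 0.053 for Hes5 and -0.034 to -0.00039 for Hes1.

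Hey1 and Hey2, related repressors that are also known from vessels, had differences of opposite sign. For Hey1 the WT replicates 1 to 6 read 6.66, 6.73, 6.74, 6.73, 6.67 and 6.59, and the cKO replicates read 6.63, 6.58, 6.57, 6.74, 6.59 and 6.54. All cKO arrays but replicate 4 lay below the WT mean, and replicate 4 was the highest of all 12. The Hey1 difference was -0.078 ± 0.036 (SE), with an unadjusted limma p of 0.0514 and an adjusted p of 0.469. Without cKO replicate 4 it was -0.10 (limma adjusted p = 0.149). For Hey2 the WT replicates read 5.91, 5.85, 5.96, 5.86, 5.89 and 5.85, and the cKO replicates 5.99, 5.93, 6.00, 5.94, 5.91 and 5.88. Of the cKO arrays 4 lay within the WT range and 2 above it. The Hey2 difference was 0.053 ± 0.024 (SE), or 1.04-fold, with an unadjusted limma p of 0.0492 and an adjusted p of 0.462. The endothelial list, with 8 of 8 genes measured and 2 of them below the median probe set, averaged 6.22 to 6.29 per WT array and 6.25 to 6.33 per cKO array. In the within-genotype correlations described below, Hey1 had r = 0.041 with this list (permutation p = 0.88, adjusted p = 0.951). Hey2 had r = 0.359 with it (permutation p = 0.273, adjusted p = 0.8). The part of the list in the genotype differences of Hey1 and Hey2 was not tested.

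Nrarp, a feedback inhibitor that binds the Notch and Rbpj complex, had a lowest, median and highest value of 6.48, 6.58 and 6.71 in WT and of 6.49, 6.55 and 6.85 in cKO. One array, cKO replicate 2, read above all others. The difference was 0.014 ± 0.063 (SE; limma adjusted p = 0.964) and turned to -0.037 without that array.

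The intervals show how large a change remained within reach of the data. For Notch1 the 95% interval allowed at most a 1.13-fold lower or 1.19-fold higher level in cKO, and for Notch2 1.10-fold lower or 1.25-fold higher. For Hes5 the bounds were 1.05-fold lower and 1.08-fold higher, and for Nrarp 1.09-fold lower and 1.11-fold higher. At its SE, a gene passed only when its difference exceeded 4.97 times the SE. That amounted to 0.52 for Notch2 and 0.48 for Notch1, but to 0.12 for Hey2 and 0.15 for Hes1. Fold sizes near the floor are understated by RMA, so the bounds for Hes1, Rbpj and Hey2 hold for the deposited values. Jag1 and Notch3 lay little higher, at level percentiles of 60.7 and 61.0 among all probe sets, against 57.9 for Hey2. The same limit applies to them.

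The other genes of the pathway were examined by role, and 60 of 63 listed genes were measured. Of these 1 rose and 0 fell, where 0.728% of all probe sets were called, 0.299% as higher and 0.429% as lower. The gene that rose was Dlk1, a non-canonical ligand that lacks the domain of Delta and Jagged proteins that activates receptors. Dlk1 read 6.65, 6.63, 6.43, 6.43, 6.27 and 6.47 in WT replicates 1 to 6 and 7.26, 7.06, 7.23, 7.11, 7.21 and 7.12 in cKO. Every cKO array lay above every WT array, and the difference was 0.68 ± 0.062 (SE; limma adjusted p = 0.000406). The canonical ligands did not pass. Values were -0.098 ± 0.031 for Jag2 (limma adjusted p = 0.253), 0.062 ± 0.015 for Dll4 (limma adjusted p = 0.115), -0.028 ± 0.052 for Dll1 (limma adjusted p = 0.901) and 0.18 ± 0.071 for Dner, another non-canonical ligand (limma adjusted p = 0.376). Without WT replicate 3, Dll4, a ligand of endothelial cells, passed (0.073, limma adjusted p = 0.0274). The ligands other than Dlk1 were chosen after their values were seen.

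In the remaining roles 0 genes passed. Among the 60, an unadjusted limma p under 0.05 was reached by 4 genes with a higher and 4 with a lower mean in cKO, against 10.7% of all probe sets. Of the 13 genes of endocytosis and ubiquitin ligases, which act on ligands and receptors at the cell surface, 2 had a positive difference and 11 a negative one, with a median of -0.063. The smallest p among them was that of Neurl1a, an E3 ligase of ligand endocytosis, at -0.12 ± 0.033 (limma adjusted p = 0.154). Neurl1a was also the only other gene of the 60 whose groups did not overlap, which makes 1 higher and 1 lower of 60, against 1.38% of all probe sets. Among the 17 genes of the nuclear complex 12 differences were positive, with a median of 0.030, and Maml3, a Mastermind coactivator, read 0.17 ± 0.061 (limma adjusted p = 0.317). Of 9 genes of receptor cleavage, Adam10, the sheddase, had the smallest p (0.093 ± 0.053, limma adjusted p = 0.575). Of 5 glycosylation genes it was Poglut1, an O-glucosyltransferase of the receptors (0.092 ± 0.045, limma adjusted p = 0.503). The receptor Notch4 read -0.052 ± 0.031 (limma adjusted p = 0.596). Heyl had the smallest p of 8 other Hes, Hey and proneural genes (-0.050 ± 0.030, limma adjusted p = 0.603).

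**Figure D3:**
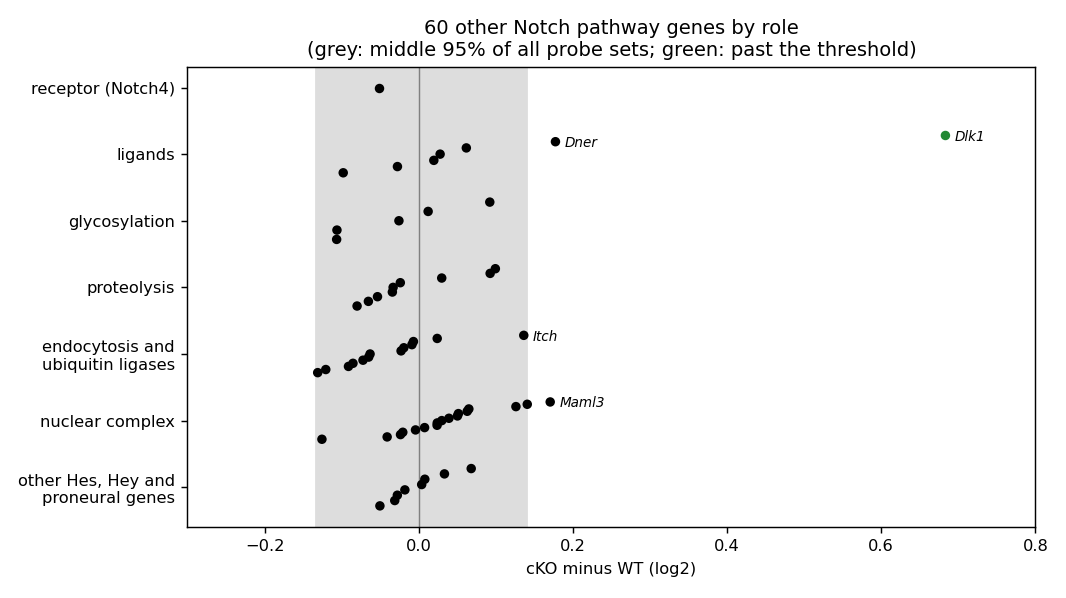
Difference cKO minus WT (log2, horizontal axis) of 60 further Notch pathway genes, 1 point per gene, grouped by role. The grey band holds the middle 95% of all probe sets, from -0.13 to 0.14, and Dlk1 (green) is the 1 gene past the threshold, at 0.68.

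Array-to-array variation within each genotype was then compared between genes, after subtracting each group's mean, over the 12 arrays. Two-sided permutation tests with 100000 resamples within groups were used, with Benjamini-Hochberg adjustment over the 45 pairs of the 10 genes. The median correlation was 0.032, so the genes did not vary as 1 block. Notch1 and Notch2 had the highest correlation, with Pearson r = 0.834 (permutation p = 0.00295, adjusted p = 0.133) and Spearman rho = 0.902 (permutation p = 0.00040, adjusted p = 0.018). It was 0.928 within WT and 0.776 within cKO, and 0.715 without WT replicate 3 and cKO replicate 6, the arrays farthest from the median. Hes5 and Hey1 varied in opposite directions, with r = -0.825 (permutation p = 0.00742, adjusted p = 0.167) and rho = -0.750 (permutation p = 0.0070, adjusted p = 0.158). Without WT replicate 3 and cKO replicate 4 that r was -0.579. By Pearson's r 0 of 45 pairs passed after adjustment. All values of a pair come from the same arrays and share their normalization.

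**Figure D4:**
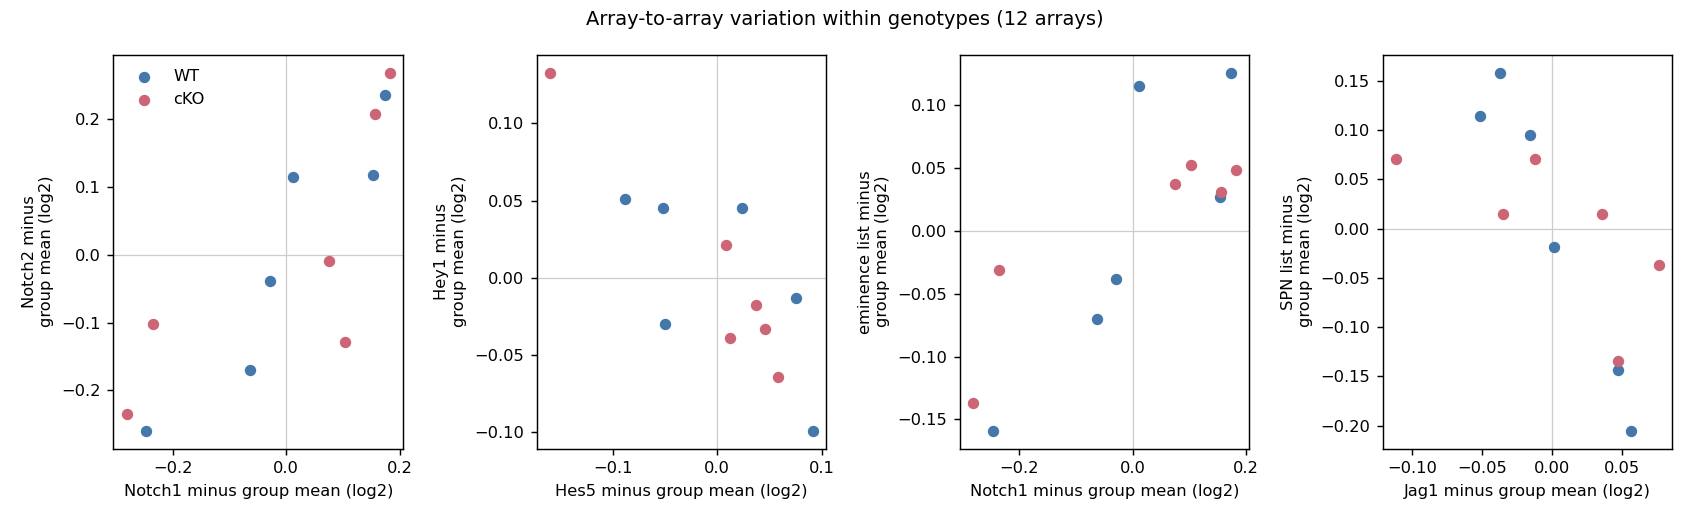
Deviations from the group mean (log2, both axes) on the 12 arrays, WT blue and cKO red, for Notch1 with Notch2, Hes5 with Hey1, Notch1 with the ganglionic eminence list and Jag1 with the striatal projection neuron (SPN) list. Notch1 rises with Notch2 and with the eminence list (r = 0.834 and 0.820), and the other pairs run in opposite directions (r = -0.825 and -0.730).

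The same deviations were set against 12 marker lists, giving 120 correlations adjusted together. Notch1 and Notch2 were high on arrays with high levels of dividing and immature cell markers. Notch1 had r = 0.820 with the ganglionic eminence list of progenitors and neuroblasts (permutation p = 0.0012, adjusted p = 0.0648; rho = 0.769, permutation p = 0.00437, adjusted p = 0.105) and r = 0.816 with the cell cycle list (permutation p = 0.00583, adjusted p = 0.0996; rho = 0.734, permutation p = 0.0128, adjusted p = 0.192). Without WT replicate 3 and cKO replicate 6 these r values were 0.612 and 0.675. Mki67 is on both the eminence and the cell cycle list, so the lists are not separate. Notch2 had r = 0.811 with the eminence list (permutation p = 0.00216, adjusted p = 0.0648; rho = 0.727, permutation p = 0.0126, adjusted p = 0.192) and r = 0.772 with radial glia (permutation p = 0.00664, adjusted p = 0.0996; rho = 0.811, permutation p = 0.00397, adjusted p = 0.105). Without WT replicate 6 and cKO replicate 5 these were 0.788 and 0.783. None of these 4 passed after adjustment. Pairs outside these lists were as strong. The r largest in size of the 120 was that of Hey2 with the cortical glutamatergic list, -0.821 (permutation p = 0.00351, adjusted p = 0.0842). Its rho was -0.650 (permutation p = 0.0290, adjusted p = 0.296). Hey1 had r = -0.768 with the meningeal list (permutation p = 0.00647, adjusted p = 0.0996). Neither passed after adjustment.

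Jag1 ran opposite to the projection neuron list, with r = -0.730 (permutation p = 0.00213, adjusted p = 0.0648) and rho = -0.874 (permutation p = 0.00017, adjusted p = 0.0204), and r = -0.881 without cKO replicates 4 and 5. The list itself averaged 8.58 to 8.94 per WT array and 8.47 to 8.67 per cKO array, over 8 of 10 listed genes. In the fit 1 of these 8 genes fell, Pde10a (-0.59 ± 0.085, limma adjusted p = 0.00869), against 0.429% of all probe sets, and 0 rose. The values went both ways, with -0.55 for Tac1 and 0.38 for Penk, which did not pass (limma adjusted p = 0.0653 and 0.0501) and were named after their values were seen. Of the 120 correlations, 1 passed by both measures, that of Hes5 with the meningeal list, r = 0.816 (permutation p = 0.00014, adjusted p = 0.0168) and rho = 0.888 (permutation p = 0.00072, adjusted p = 0.0432). It was 0.548 without WT replicate 3 and cKO replicate 4, and 3 of the 5 meningeal genes lay below the median probe set. Pdgfrb is on both the meningeal and the mural cell list. With the mural cell list Hes5 had r = 0.246 (permutation p = 0.481, adjusted p = 0.866).

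The levels of these lists between genotypes stand beside the receptor values. The radial glia list (10 of 10 measured) averaged 8.96 to 9.25 per WT array and 9.17 to 9.39 per cKO array, with 0 genes past the threshold. Its gene with the smallest p was Sox2 (0.37 ± 0.091, limma adjusted p = 0.111). The eminence list (8 of 8) averaged 9.10 to 9.38 per WT array and 9.21 to 9.40 per cKO array, with 0 past the threshold, and the smallest p was that of Dcx (0.076 ± 0.020, limma adjusted p = 0.128). The cell cycle list (9 of 10) averaged 7.67 to 7.93 and 7.76 to 8.05, and 1 gene rose, Aurkb (0.22 ± 0.040, limma adjusted p = 0.0303), against 0.299% of all probe sets. Of the 9 measured cell cycle genes 9 had a positive difference, against 48.8% of all probe sets, and 5 reached an unadjusted limma p under 0.05 with a higher mean, against 5.06%. Their part in the genotype differences of Notch1 and Notch2 was not tested. The per-array means of the other lists, WT first, ran from 7.12 to 7.29 and from 7.15 to 7.27 for astrocytes, from 6.54 to 6.84 and from 6.63 to 6.71 for the oligodendrocyte lineage, and from 5.84 to 5.91 and from 5.85 to 5.91 for microglia. They ran from 5.64 to 5.73 and from 5.64 to 6.43 for choroid plexus and ependyma, from 5.89 to 5.96 and from 5.92 to 6.02 for meninges, and from 5.97 to 6.44 and from 6.08 to 6.78 for cortical glutamatergic neurons. The 6.43 was that of cKO replicate 1, the array with the high Ttr value. Of the 5 measured cortical genes 5 had a positive difference, with a median of 0.34, and 0 passed the threshold. An unadjusted limma p under 0.05 with a higher mean was reached by 2 of them, against 5.06% of all probe sets. Of these 5 genes 2 lay below the median probe set, and what moved the list was not tested.

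**Figure D5:**
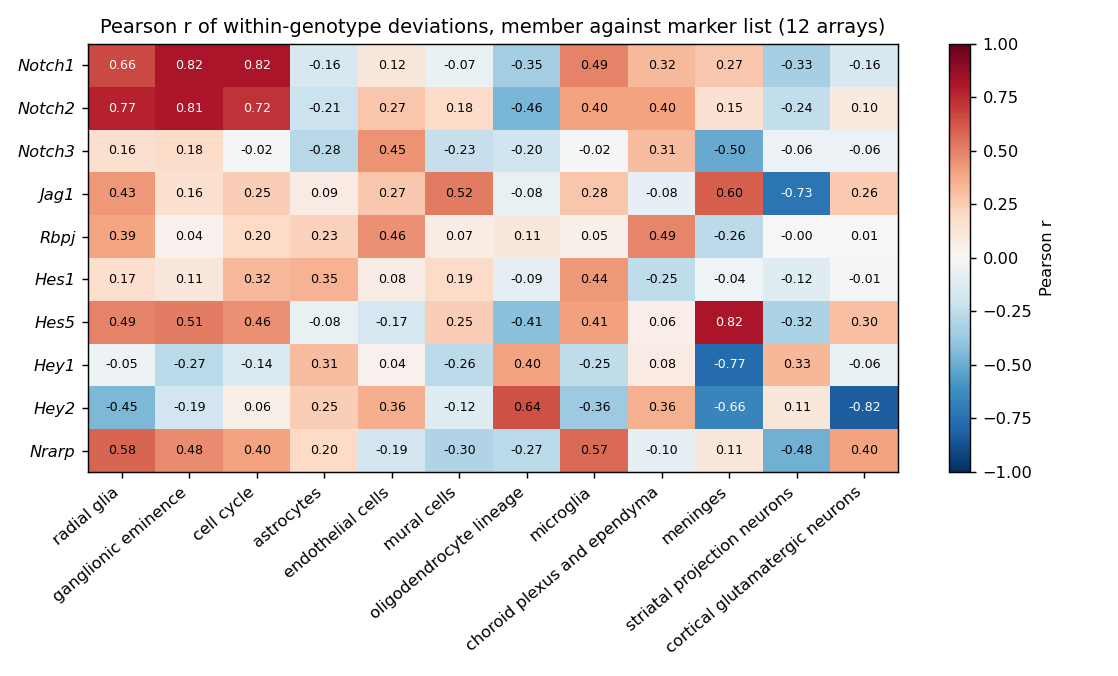
Pearson r of within-genotype deviations over 12 arrays for each of the 10 genes (vertical) against 12 marker lists (horizontal), with red for positive and blue for negative values. Notch1 and Notch2 share high values in the first 3 columns (0.66 to 0.82), which Notch3 and Rbpj do not show. Hes5 and Nrarp have lower positive values there (0.46 to 0.51 and 0.40 to 0.58).

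The named probe sets most like each gene over the 12 arrays, by the same within-genotype correlation and out of all named probe sets, are given as a description. Of the 27 neighbours 10 had a mean below the median probe set of 5.71, down to 5.25, close to the lowest deposited value of 5.21. For Notch1 they were St18 (r = 0.934), Gm38455 (0.923) and Nrxn3 (0.917), and for Notch2 Rcor2 (0.956), Nup50 (0.919) and Veph1 (0.919). For Hes5 they were Kdm5b (0.905), Ints3 (0.897) and Ndufa8 (0.876). For Nrarp they were N4bp1 (0.909), 4921531C22Rik (0.881) and Chrd (0.871), and for Jag1 H2ac7 (0.886), Tas2r113 (0.844) and Cdkn1c (0.838). For Rbpj they were Banf2 (0.925), Ddx52 (0.924) and Sclt1 (0.894), and for Notch3 2210407C18Rik (0.899), Mir301b (0.882) and Rpusd2 (0.880). For Hey1 they were 2010106E10Rik (0.914), Pramel20 (0.904) and Gpr84 (0.861), and for Hey2 Mir3059 (0.876), Icmt (0.870) and Mir103-2 (0.868). None of the 10 genes was itself among these neighbours.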

How the data were processed

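RNA of 12 striatal samples, each dissected from both hemispheres, was measured on 1-colour arrays, 6 WT and 6 cKO, with the titles naming the samples of a group as biological replicates. The deposited values are log2 expression made with RMA (version not stated), per the submitters' processing notes. For array software and genome build the sources used here give nothing. After sorting, 11 of the 12 arrays held the same values to within 0.000977, so a change shared by all genes would not be visible.

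The platform annotation, brought up to date through a RefSeq table (GRCm38.p6), named 24674 of 25428 probe sets. The genotype contrast was fitted in R 4.3.3 by limma 3.58.1 (lmFit, eBayes, two-sided, no covariates) over all probe sets and arrays, with a threshold of 0.05 on Benjamini-Hochberg adjusted p. Intervals are 95%. Correlations were computed in Python 3.11.15 with numpy 2.4.6. On simulated data with 200 changed probe sets among 25428, the limma test found 78.8% of the changes set to 0.25 in log2, 97.2% of those set to 0.5 and 99.6% of those set to 1, and 6% of its calls were false. These are averages over probe sets of all spreads.

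The 10 genes, the 63 pathway genes and the marker lists were chosen with earlier results of these data known. Named in the text are the 10 genes, pathway genes past the threshold, the smallest p in each role, the 3 nearest probe sets of each of the 9 genes above the median level, and marker genes with the smallest p, given for the lists whose levels are set beside the receptors. Other names are identified as such. The alternatives were other normalizations, leaving out arrays, a filter on dim probe sets, array weights, a Y-linked covariate, a stricter threshold, a robust prior with a trend, and a block for the replicate number. Same-numbered WT and cKO arrays did not deviate together: their correlations ran from -0.22 to 0.15 over 6 pairs.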

Additional observations from a re-analysis of the deposited data

Results flagged for a closer look

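Among the 20 sets of 6 arrays formed by 10 genes and 2 genotypes, 1 held an array far from the others by Dixon's gap test, and chance gives about 1 in 20. It was Hes5 in cKO replicate 4, at 6.85 against 7.02 for the nearest cKO array. The same array read highest of the cKO arrays for Hey1. Without it the Hes5 difference was 0.053 (limma adjusted p = 0.558), and without WT replicate 3 it was 0.0032 (limma adjusted p = 0.988).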

How the results depend on the processing

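In each of 23 alternatives 0 of the 10 genes passed the threshold, and Dlk1 passed in 23 of 23. The stricter threshold was applied to the same fit, so it could not add a call among the 10 genes. Repeated quantile normalization and median centring could change little, because the arrays already had nearly the same distribution. Hes1 was not in the fit without dim probe sets. Called probe sets in all, and those higher, numbered 278 and 118 with dim probe sets left out; fewer probe sets were then tested, and the cause was not tested. With the replicate number as a block they were 64 in all, 24 higher and 40 lower, and with an adjusted p below 0.01 they were 61, 19 and 42. Without WT replicates 3 and 6, 45 were higher. When each array was left out in turn, the total ran from 106 to 227, the higher ones from 39 to 93 and the lower ones from 66 to 134, with totals of 106, 117 and 109 without cKO replicate 2, 3 or 5. The higher ones numbered 50 without WT replicate 4 and 49 without cKO replicate 6. Pathway genes past the threshold ran from 1 to 2, the second being Dll4 without WT replicate 3, and those higher likewise from 1 to 2. The sign of 3 differences turned, none of them past the threshold. Leaving out 1 array, Notch1 ran from -0.013 (without WT replicate 3) to 0.093 and Nrarp from -0.037 to 0.038, with values of -0.0078 without WT replicate 3, -0.0026 without WT replicate 4 and -0.037 without cKO replicate 2. Without WT replicates 3 and 6, Hes1 read 0.0033 and Nrarp -0.0040. Why these turned was not tested. Same-numbered arrays shared only a number (0 of 6 matched best with their own), and the block changed no call among the 10 genes, with an adjusted p of 0.214 for Jag1 and 0.247 for Hey2 in limma. Values near the median probe set limit what can be seen for Hes1, Rbpj and Hey2, and also for Jag1 and Notch3, which lay little higher.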
